A study of Mus musculus with 8 samples.

Results

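The genes examined were *Mybph* and 5 genes of the embryonic or cardiac sarcomere, *Actc1*, *Myh3*, *Myh8*, *Myl4* and *Tnnt2*. They account for 6 of the 22206 probe sets measured on 8 arrays of gastrocnemius (GAS) muscle, and each had 1 probe set. A member was the probe set whose gene symbol matched, and signals at the highest value of the table were marked as saturated. The genes were selected with the difference between the groups in these same arrays already known, so that difference is described below without a test and supports nothing about them.

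All animals were male mice of the C57/Bl6j strain. Per the labels they were 14 weeks old, and per the design text about 10 weeks old at injection. GAS muscle was injected with an adeno-associated virus (AAV) that made a short hairpin RNA from the U6 promoter, and RNA was taken 3 weeks later. In the 4 AAV sh-RNA MYTHO muscles the hairpin was directed against the transcript of *Mytho*, listed on the array as D230025D16Rik. In the 4 AAV sh-RNA scrmb muscles, from the opposite legs, the hairpin was scrambled, so both groups had received virus, an injection and a hairpin. RNA came from whole muscle, including fibers the virus did not reach and cells other than fibers, so that fewer cells of a type and less RNA per cell cannot be told apart. The 4 animals are called A to D, on the inference that columns carrying the same animal number were the opposite legs of a single animal. Values are log2 signals, on which a difference of 1 is a 2-fold difference, and levels are not compared between genes because each probe set has its own response.

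Sarcomeres are built from thick filaments of myosin and thin filaments of actin, and most of their proteins come in isoforms encoded by separate genes. Skeletal muscle first makes embryonic, neonatal and cardiac isoforms, and it replaces most of them with adult fast or slow isoforms as fibers mature. Several of the early isoforms are made again in regenerating fibers, and *Mybph* encodes myosin binding protein H, a relative of the myosin binding protein C family that is bound to thick filaments.

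The hairpin target was lower in MYTHO, which checks the labels. D230025D16Rik had a log2 signal of 10.78 to 11.35 in scrmb and 8.08 to 8.80 in MYTHO. The difference was -2.81 with a standard error of 0.21 (limma adjusted p = 0.00044), and the exact two-sided permutation p was 0.0286, the smallest that 4 against 4 arrays allow when the pairing of legs is ignored. Exchanging the legs within animals gave an exact p of 0.125, the smallest that 4 pairs allow. Array medians lay between 6.39 and 6.47. The tissue was checked by markers of skeletal muscle: 8 of the 10 skeletal muscle identity genes stayed below the ceiling on all arrays, with array means of 18.85 to 19.06 in scrmb and 18.91 to 19.03 in MYTHO, and *Acta1* was at the ceiling on all arrays. Differences of the 8 ran from -0.29 for *Ryr1* to 0.55 for *Mb*. Across all probe sets, 0.261% were called higher and 1.25% lower at the threshold of the methods, a 2-fold or larger difference at an unadjusted p under 0.05, and 0.027% had an adjusted p under 0.05 in either direction. The groups did not overlap, with MYTHO higher, for 2.59% of probe sets.

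The promoter windows of the 3 genes with the largest differences are shown first, to show the sequence at the start of each gene. Each window runs from 250 bases before the RefSeq start to 50 bases after it in GRCm38.p6, the assembly that the files call mm10, and is written 5′ to 3′ on the strand of the gene. Capitals mark matches, on either strand, to an E-box (CANNTG), a CArG box, a MEF2 motif, an MCAT motif (CATTCC) or TATAAA. E-boxes are bound by myogenic factors such as myogenin, CArG boxes by serum response factor, and MCAT motifs by TEAD factors. The windows lie at chr1:134193198-134193497 on the plus strand for *Mybph*, at chr2:114052826-114053125 on the minus strand for *Actc1*, and at chr11:67078050-67078349 on the plus strand for *Myh3*.
Mybph: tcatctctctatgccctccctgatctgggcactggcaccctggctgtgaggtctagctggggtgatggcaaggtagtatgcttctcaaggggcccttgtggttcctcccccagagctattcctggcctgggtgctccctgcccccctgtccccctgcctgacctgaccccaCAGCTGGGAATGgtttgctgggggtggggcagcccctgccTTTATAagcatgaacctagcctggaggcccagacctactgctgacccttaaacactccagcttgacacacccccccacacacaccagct
Actc1: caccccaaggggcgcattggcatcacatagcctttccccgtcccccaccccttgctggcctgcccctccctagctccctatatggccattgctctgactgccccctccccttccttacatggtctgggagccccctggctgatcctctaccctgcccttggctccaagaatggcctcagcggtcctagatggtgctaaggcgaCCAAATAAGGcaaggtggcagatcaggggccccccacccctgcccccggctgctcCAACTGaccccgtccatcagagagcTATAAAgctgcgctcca
Myh3: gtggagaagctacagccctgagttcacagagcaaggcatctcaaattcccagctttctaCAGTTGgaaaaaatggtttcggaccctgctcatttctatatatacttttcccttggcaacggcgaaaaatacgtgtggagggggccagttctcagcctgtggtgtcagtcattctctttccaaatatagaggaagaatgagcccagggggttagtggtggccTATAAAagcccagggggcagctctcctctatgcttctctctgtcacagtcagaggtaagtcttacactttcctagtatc

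Bases were counted from 0 at the first transcribed base. In the *Mybph* window an E-box at -79 to -74 is followed directly by an MCAT motif on the reverse strand at -73 to -68, and TATAAA lies on the reverse strand at -39 to -34. In the *Actc1* window a CArG box spans -47 to -38, an E-box 8 to 13 and TATAAA 33 to 38. The *Myh3* window holds an E-box at -191 to -186 and TATAAA at -29 to -24. All 6 genes matched RefSeq starts, with a second start for *Tnnt2*, giving 7 windows of 300 bases. *Myh8* had E-boxes at -32 to -27 and 6 to 11, and a MEF2 motif at -99 to -90 that contains a TATAAA match at -96 to -91. The first *Tnnt2* start had 5 E-boxes and an MCAT motif at -27 to -22, and the second had 2 E-boxes. The *Myl4* window, chr11:104550413-104550712, held no match to any of the 5 motifs. That window lies inside the gene, away from the gene start of 104546017 given below, and overlaps the end of *Cdc27* at 104550620. The starts used for *Mybph*, *Myh3* and *Tnnt2* also lie inside the gene coordinates given below.

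These matches are common or rare to different degrees. Of 32851 RefSeq windows of the same length, 72.3% held an E-box, 14.7% an MCAT motif, 13.6% TATAAA, 1.86% a MEF2 motif and 1.63% a CArG box. A match describes letters in a window and not binding, and no array value here measures binding. Of the factors named, *Myog* (encoding myogenin) differed by 0.65 and *Srf* by 0.12 between the groups, *Tead1* by -0.03 and *Tead4* by -0.28. None of the 16 myogenic and sarcomere transcription factors passed the 2-fold threshold. Of the 16, *Myog*, *Tead4*, *Myod1*, *Myocd*, *Tbx5* and *Prox1* lay within the background range defined below and could hardly show a change.

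**Figure D1:**
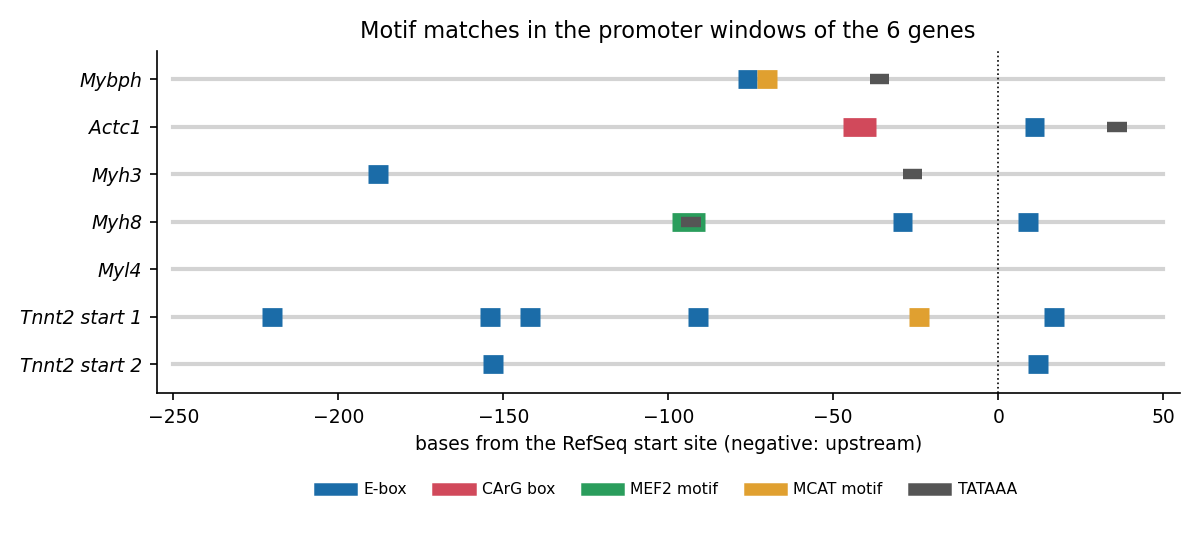
Positions of the motif matches in the 7 promoter windows, in bases from the RefSeq start (horizontal axis, negative upstream), with 1 line per window and coloured blocks for the 5 motifs. The adjacent E-box and MCAT motif of *Mybph* (-79 to -68), the CArG box of *Actc1* (-47 to -38) and the empty *Myl4* line can be read from it.

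*Mybph* (Entrez gene 53311, chromosome 1 from 134193418 to 134201237) was higher in MYTHO in every animal. In the order A to D, the log2 signal read 10.09, 9.48, 8.94 and 11.15 in scrmb and 13.79, 11.77, 12.31 and 13.61 in MYTHO. The lowest MYTHO array, that of animal B, exceeded the highest scrmb array, that of animal D, by 0.62, so the groups did not overlap. The group means were 9.92 ± 0.95 and 12.87 ± 0.99 (SD, n = 4), a difference of 2.96, or 7.75-fold. Within animals A to D the difference was 3.70, 2.29, 3.37 and 2.46, with an SD of 0.69. It was the largest upward difference on the array. Animals A and D were the highest in both legs, in reverse order, and animals B and C were the lowest in both.

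*Actc1* (Entrez gene 11464, chromosome 2 from 114047282 to 114052875) encodes cardiac alpha-actin, the main sarcomeric actin of the heart and of immature skeletal fibers. Scrmb muscles of A to D had log2 signals of 13.90, 12.50, 13.25 and 14.10, and MYTHO muscles had 15.49, 14.45, 14.78 and 15.32. The groups were again separate, with 0.35 between the highest scrmb array, from animal D, and the lowest MYTHO array, from animal B. The means were 13.44 ± 0.72 and 15.01 ± 0.48 (SD, n = 4), a difference of 1.57, or 2.97-fold. The differences within animals, 1.59, 1.95, 1.53 and 1.22, had an SD of 0.30, smaller than the spread between animals within either group. Of all probe sets, 8 had an upward difference at least as large. The adult skeletal alpha-actin gene *Acta1* was saturated on all 8 arrays, so whether it moved with *Actc1* could not be read. The proteins of both genes are nearly identical and the probe sequences were not used here, so cross-hybridisation between their transcripts was not tested.

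*Myh3* (chromosome 11 from 67078273 to 67102291) encodes embryonic myosin heavy chain. Signals were 6.09, 5.94, 5.37 and 6.06 in scrmb and 7.59, 6.83, 6.31 and 5.56 in MYTHO, in the order A to D. It was higher in MYTHO in 3 of 4 animals, by 1.50, 0.89 and 0.94 in A, B and C, and lower by 0.50 in animal D. The MYTHO array of animal D lay below 3 of the 4 scrmb arrays, so the groups overlapped. The means were 5.87 ± 0.34 and 6.57 ± 0.86 (SD, n = 4), a difference of 0.71. Averaged over the 8 arrays, 144 of 1079 olfactory receptor probe sets, genes that muscle is not known to use, were at or above *Myh3* and the rest below it, so its signal was not clearly above background. Below, a gene is called within the background range where its mean over the arrays does not exceed the 95th percentile of those probe sets, 6.70, and a small difference of such a gene cannot show that its RNA did not change. None was at or above *Mybph*, *Actc1* or *Myl4*.

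*Myh8* (chromosome 11 from 67277124 to 67308634) encodes neonatal, or perinatal, myosin heavy chain. Its log2 signal was 19.93, the ceiling of the table, on all 8 arrays, so no comparison between the groups can be made. A neonatal isoform at the ceiling in adult GAS muscle goes against the isoform's name, and the value was not used as a reading of neonatal myosin. The adult fast gene *Myh4* was at the ceiling on all 8 arrays as well. Probe sequences were not used here, so cross-hybridisation among the near-identical myosin heavy chain transcripts was not tested.

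*Myl4* (chromosome 11 from 104546017 to 104587215) encodes the essential myosin light chain of the atrium and of embryonic muscle. Its log2 signal was 11.66, 11.04, 11.33 and 10.94 in scrmb and 11.80, 11.20, 11.13 and 11.36 in MYTHO. The groups overlapped, with means of 11.24 ± 0.32 and 11.37 ± 0.30 (SD, n = 4) and a difference of 0.13. The differences within animals A to D were 0.14, 0.16, -0.20 and 0.42, all smaller than 1 log2 unit.

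*Tnnt2* (chromosome 1 from 135836315 to 135852268) encodes cardiac troponin T, which is also made in embryonic skeletal muscle. Its log2 signal was 6.07, 6.03, 6.35 and 6.32 in scrmb and 6.50, 6.52, 6.77 and 5.69 in MYTHO. It was higher in MYTHO by 0.43, 0.49 and 0.42 in animals A to C and lower by 0.63 in animal D, as *Myh3* was. The means were 6.19 ± 0.17 and 6.37 ± 0.47 (SD, n = 4), a difference of 0.18, and the groups overlapped. Of the 1079 olfactory receptor probe sets, 132 were at or above *Tnnt2*, so its signal too was not clearly above background.

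**Figure D2:**
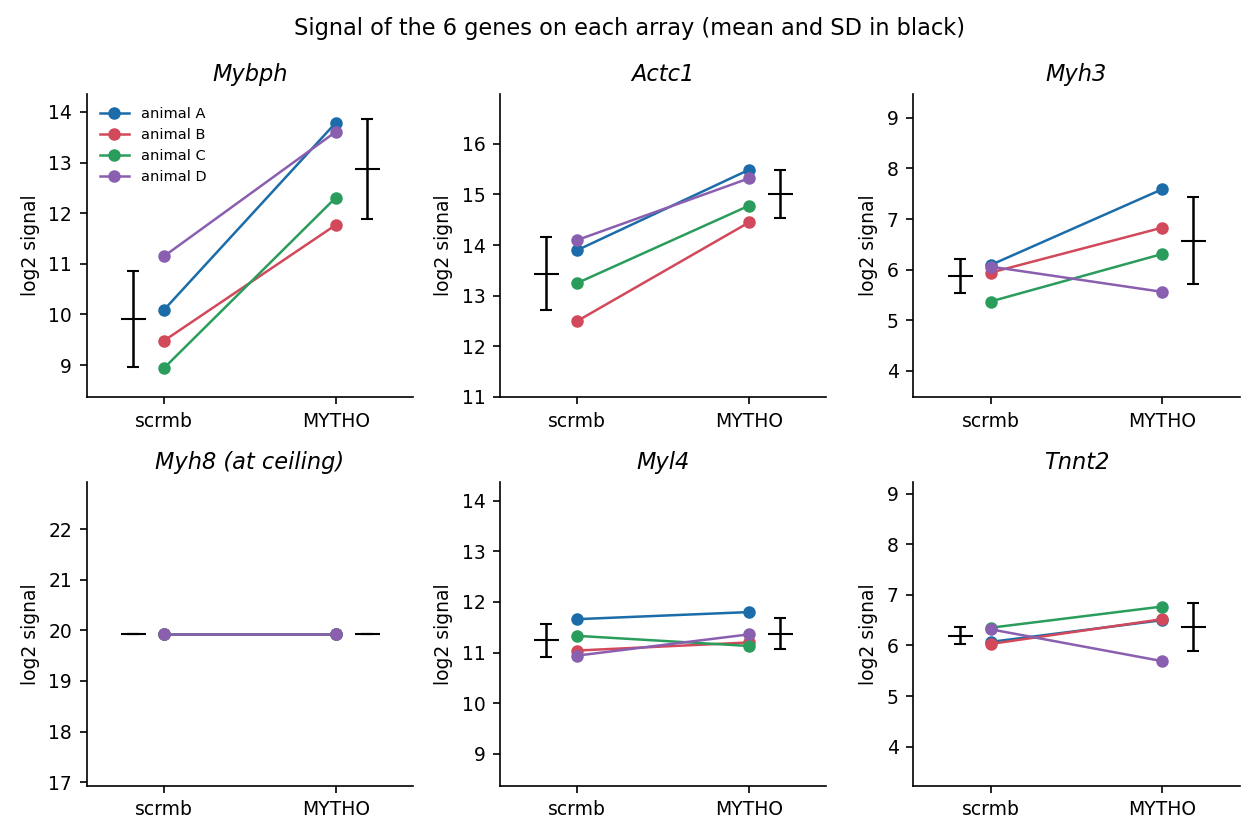
Log2 signal of each of the 6 genes on each array (vertical axis), with the scrmb and MYTHO legs of an animal joined by a line, colours for animals A to D, and the group mean and SD in black (n = 4). *Mybph* and *Actc1* are higher at the MYTHO end of all 4 lines, *Myh3* and *Tnnt2* at that of 3, with animal D lower, and *Myh8* is flat at 19.93.

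Of the 6 genes, 2 were both at least 2-fold higher and without overlap between the groups, *Mybph* and *Actc1*. Of all probe sets, 0.275% were at least 2-fold higher, whatever their p, and 2.59% did not overlap with MYTHO higher. As the genes were selected on this contrast, nothing is read from that count. Without the MYTHO array of animal D, or without both arrays of that animal, 4 of the 6 did not overlap, *Myh3* and *Tnnt2* being added, both within the background range. Of all probe sets, 4.6% did not overlap, with MYTHO higher, in the first case (4 against 3 arrays) and 8.25% in the second (3 against 3), and the difference of *Myh3* was 1.05 or 1.11.

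**Figure D3:**
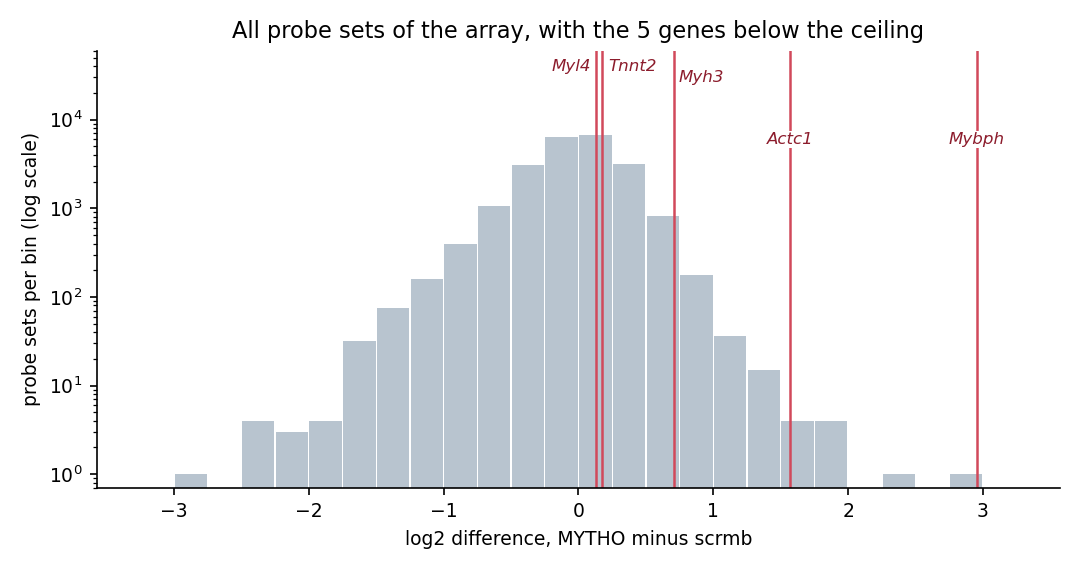
Number of probe sets (vertical axis, log scale) by log2 difference between the MYTHO and scrmb group means (horizontal axis), for all 22206 probe sets, with the 5 genes below the ceiling as vertical lines. *Mybph* at 2.96 stands at the right edge and *Actc1* at 1.57 in the right tail, while *Myl4*, *Tnnt2* and *Myh3* lie at 0.13, 0.18 and 0.71.

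Related genes were counted beside these isoforms. The 6 sarcomere families of the selected genes and of tropomyosin held 38 other genes, of which 32 were below the ceiling on all arrays and 6 were called higher. Some members of these families, such as *Actb* and *Myh14*, are not sarcomeric. With lists of cell types, fiber states, load response and transcription factors added, the 16 lists held 119 genes that were not selected, of which 112 were below the ceiling on all arrays. Of these, 10, or 8.93%, were called higher and 0 lower at the 2-fold threshold, against 0.261% higher and 1.25% lower of all probe sets. None had a limma adjusted p under 0.05. An unadjusted p under that value was found for 21 of the 112, or 18.8%, all with higher means in MYTHO, against 12.4% of all probe sets in either direction and 4.81% with higher means. The lowest adjusted p was 0.123, for *H19*. The median difference of the 112 genes was 0.15, and that of all probe sets was -0.01. Several of these lists overlap, and they were chosen with earlier results of these data known. The 10 calls became 2 without MYTHO C, 16 without MYTHO D and 1 with eBayes trend and robust.

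Among the myosin heavy chains, 1 of 7 measurable genes was called, the slow and cardiac *Myh7*, at a difference of 1.82 (standard error 0.71, limma adjusted p = 0.326). The cardiac *Myh6* differed by 0.05. Of these 7, all but *Myh7* and *Myh1* lay within the background range and could hardly show a change. Among the light chains, 1 of 8 was called, the slow *Myl3* at 1.28, while the atrial *Myl7* had the lowest difference, -0.28.

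Of the 4 measurable actins other than *Actc1*, none was called, and their differences ran from 0.10 for cytoplasmic *Actb* to 0.62 for smooth muscle *Actg2*. The vascular smooth muscle actin *Acta2* differed by 0.14. The probe set of *Actg1* also names a microRNA gene. Among the myosin binding proteins, none of the 4 relatives of *Mybph* was called: *Mybpc1*, the slow form, differed by 0.52, the fast *Mybpc2* by -0.09, the cardiac *Mybpc3* by 0.02 and *Mybphl*, its closest relative by name, by 0.30.

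Among the troponins, 3 of 7 were called, all of slow fibers: *Tnni1* at 2.44, *Tnnc1* at 1.88 and *Tnnt1* at 1.41. Cardiac *Tnni3* differed by 0.15. Of the tropomyosins, the slow *Tpm3* was called at 1.67 and *Tpm4*, below the ceiling as well, differed by 0.48. Of the genes named in these families, *Myh6*, *Myl7*, *Tnni3*, *Actg2*, *Mybpc3* and *Mybphl* lay within the background range. *Tpm1* was at the ceiling on all arrays, and *Tpm2* reached it on the MYTHO array of animal C.

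**Figure D4:**
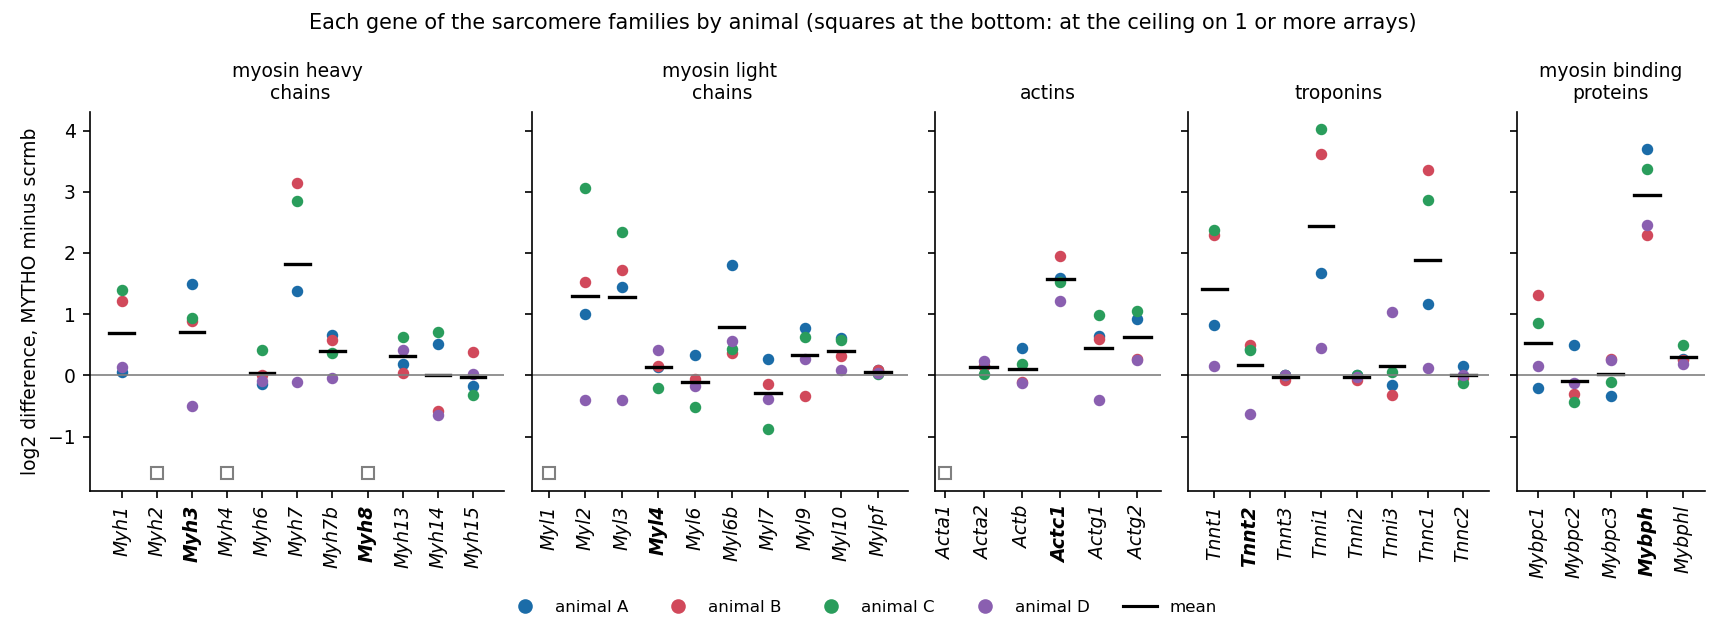
Log2 difference of each animal, MYTHO leg minus scrmb leg (vertical axis), for every gene of 5 sarcomere families, with the selected genes in bold, the mean of the 4 animals as a bar, and open squares for genes at the ceiling on 1 or more arrays. *Mybph* and *Actc1* lie above 1 in all 4 animals, whereas animal D lies at -0.10 for the slow gene *Myh7*, 0.12 for *Tnnc1* and 0.44 for *Tnni1*.

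The slow sarcomere list had the most calls. Of its 10 genes, 7 were called higher, the median difference was 1.46, and the 7 had limma adjusted p between 0.280 and 0.369. Beside those already given, *Atp2a2*, the slow-fiber calcium pump, differed by 1.51. *Myl2* differed by 1.30 and was not called. The call rested on few arrays and on the variance model: 0 slow genes were called without MYTHO C or with eBayes trend and robust, 1 without MYTHO A, 2 without MYTHO B, scrmb B or scrmb D, and 3 without scrmb C. Of the 12 adult fast genes, 6 were below the ceiling on all arrays and none was called, from -0.09 for *Mybpc2* to 0.70 for *Myh1*. The fast genes *Mylpf*, *Tnnt3* and *Tnni2* read 19.62 to 19.87, just under the ceiling of 19.93, where a rise could not show. The mean over the 10 slow genes differed by 1.19, 2.11, 2.38 and 0.11 in animals A to D.

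In animal D, *Mybph* was higher by 2.46 and *Actc1* by 1.22, while the slow mean differed by 0.11 and *Myh3* and *Tnnt2* were lower. The part of the slow-fiber content of each sample in the differences of *Mybph* and *Actc1* was not tested. These are the values of 1 animal and carry no test.

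**Figure D5:**
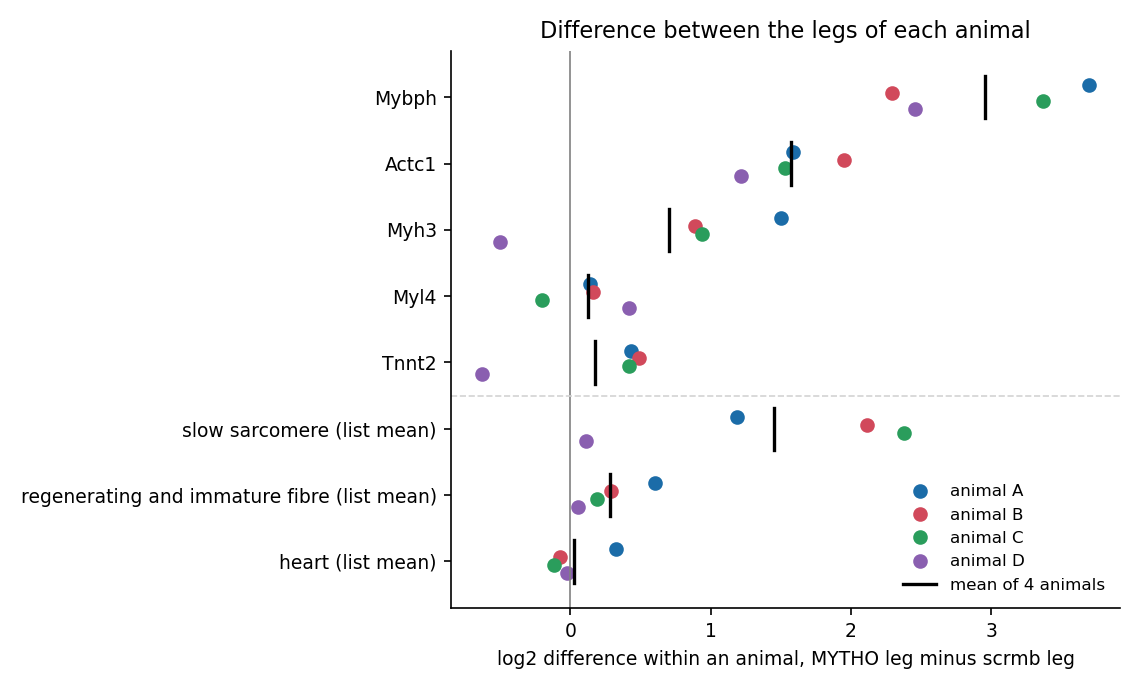
Log2 difference within each animal, MYTHO leg minus scrmb leg (horizontal axis), for the 5 measurable genes and for the means of 3 gene lists, with colours for animals A to D and black bars for the mean of the 4 animals. *Mybph* runs from 2.29 to 3.70 and the slow list from 0.11 to 2.38.

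Cell types and states that use these isoforms were checked by their own markers. The 12 heart genes, which leave out the selected genes, had no call, differences from -0.33 for *Nppa* to 0.40 for *Sln*, and a median of 0.04. All but *Sln*, 11 of the 12, lay within the background range, so the list could hardly show a change. Their mean over the list was 5.21 to 5.51 in scrmb and 5.18 to 5.70 in MYTHO. *Sln*, encoding sarcolipin, was 12.08 on the MYTHO array of animal A and 7.31 to 7.40 on the other MYTHO arrays.

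The 16 regenerating and immature fiber genes, again without the selected genes, had no call at 2-fold, a median of 0.31 and a range from -0.34 for *Myf6* to 0.91 for *Chrna1*. *Chrna1*, a subunit of the muscle acetylcholine receptor, had a limma adjusted p of 0.127 and was higher in all 4 animals. *Myog* at 0.65 and *Cdh15* at 0.51 were the other 2 with an unadjusted p under 0.05, which makes 3 of 16 genes where 4.81% of all probe sets had such a p with a higher mean in MYTHO. The list means were 7.19 to 7.38 in scrmb and 7.39 to 7.80 in MYTHO. Of the 16 genes, 11 lay within the background range, *Myog*, *Cdh15*, *Myod1* and the satellite cell marker *Pax7* among them.

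The list of growth and load genes had 3 of 15 called: *Hspb7* at 1.88, *H19* at 1.18 and *Lmcd1* at 1.04. A microRNA shares the row of *H19*. The median was 0.66. The other non-fiber markers had no call: 8 smooth muscle genes (list mean 9.08 to 9.52 in scrmb and 9.35 to 9.73 in MYTHO), 8 macrophage genes (6.99 to 7.43 and 7.07 to 7.41) and 7 T cell genes (5.49 to 5.72 and 5.29 to 5.68). Differences ran from -0.24 for *Lmod1* to 0.62 for *Actg2* among the smooth muscle genes, from -0.45 for *Mrc1* to 0.54 for *Cd68* among the macrophage genes, and from -0.43 for *Cd3e* to 0.15 for *Cd3d* among the T cell genes. All T cell genes but *Cd4* lay within the background range, so that list could hardly show a change. So did the macrophage genes *Adgre1*, *Csf1r*, *Itgam*, *C1qa* and *C1qb*, and the smooth muscle genes *Actg2* and *Cnn1*. The part of these cell types in the differences of the selected genes was not tested.

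Position in the genome was compared as well, since several of these genes lie beside other muscle genes in GRCm38.p6. *Mybph* overlaps *Adora1* at its end, lies 3.39 kb from *Chil1* and 88.8 kb from *Myog*. *Adora1* differed by 0.37, *Chil1* by -0.25, *Chit1* by 0.66 and *Myog* by 0.65. All 4 lay within the background range, so they are not compared with *Mybph*. *Tnnt2* lies 25.3 kb from *Tnni1*, the slow troponin I gene. *Tnni1* differed by 2.44 and *Tnnt2* by 0.18. The gene between them, *Lad1*, lay within the background range, as *Tnnt2* did.

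*Myh3* and *Myh8* lie in the cluster of skeletal myosin heavy chain genes on chromosome 11. *Myh2*, at the ceiling on the MYTHO array of animal B, and *Myh1* follow *Myh3* at 68.7 and 97.8 kb, and *Myh1* differed by 0.70. *Myh4* and *Myh13* flank *Myh8* at 16.7 and 18.5 kb, and *Myh13*, a form of the extraocular muscles, lay within the background range. Of the neighbors of *Actc1* on either side, *Aqr* differed by 0.11 and *Gjd2* lay within the background range. *Myl4* overlaps *Cdc27*, which differed by 0.06.

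Genes with the most similar profiles were named by the root-mean-square difference between log2 signals, each gene centered on its own mean over the 8 arrays. The gene nearest to *Mybph* was *Actc1*, at 0.86, followed by *Krtcap2* at 1.00 and Gm5218 at 1.06. The likeness was not mutual in rank, as *Mybph* ranked 3111 among the genes nearest to *Actc1*. Signals were not scaled, so ranks also follow how far a gene varied, and *Mybph* spanned 4.85 log2 units. The distances also include the difference between the groups, which was known when the genes were selected. The genes nearest to *Actc1* were *Krtcap2* at 0.45, *Dnaic1* at 0.48 and *Il2rg* at 0.49. *Krtcap2*, which encodes a subunit of the oligosaccharyltransferase complex, was 13.43, 12.67, 12.15 and 13.31 in scrmb and 14.71, 13.92, 14.70 and 14.05 in MYTHO.

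For *Myh3* the nearest were *Atp1b4* at 0.25, *Adgrg1* at 0.27 and *Galnt3* at 0.28. *Atp1b4* was 7.80, 7.87, 6.77 and 6.31 in MYTHO and 6.92, 6.86, 6.10 and 6.90 in scrmb, so it too was lower in animal D only. For *Tnnt2* the nearest were *Tbrg3* at 0.10, *Slc19a1* at 0.11 and *Cxx1c* at 0.13. *Myh3* and *Tnnt2* lay within the background range themselves, as did *Galnt3*, *Tbrg3*, *Cxx1c*, *Dnaic1* and *Il2rg*. *Mybph* ranked 21319 among the genes nearest to *Myh3*, and *Myh3* ranked 525 among those nearest to *Mybph*. *Myl4* varied by less than 1 log2 unit and *Myh8* was saturated, so neither was given a nearest gene. With 8 arrays these likenesses are descriptions.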

How the data were processed

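Biotin-labelled total RNA was measured on Clariom S Mouse arrays. The deposited values are log2 signals, computed by the authors with Transcriptome Analysis Console version 4.0.1, per the file headers by SST-RMA at gene level with annotation release 36 on mm10, and rounded to 2 decimals from 2.38 to a ceiling of 19.93. The submitters' processing notes also name Affymetrix Expression Console and RMA. A signal at the ceiling is a lower bound. In all, 18 probe sets were at the ceiling on all 8 arrays and 3 on some, and 836 rows name several genes. The table also holds the authors' group averages, fold changes, p-values and false discovery rates, which were not used.

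The groups were fitted in R 4.3.3 with limma 3.58.1 (lmFit and eBayes, MYTHO minus scrmb, no block), adjusted by Benjamini-Hochberg over all probe sets. The methods name eBayes and do not say whether the legs were blocked by animal. Tables and figures were made with Python 3.11.15, pandas 2.3.3, scipy 1.17.1 and matplotlib 3.10.9. Nothing in the labels ties replicate numbers to columns, so the pairing rests on the animal number, which occurs once in each group, and on the injection of opposite legs. Deviations from the group means correlated between legs across probe sets at 0.003, -0.001, 0.13 and 0.09 in animals A to D. The precision is limited by the number of arrays, 4 a group, and the p-values measure the spread between these arrays.

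The genes and lists were chosen with earlier results of these data known. Named were the selected genes on every array, the genes of a list that were called or otherwise its highest and lowest, the 3 nearest profiles of each selected gene that was unsaturated and spanned at least 1 log2 unit, and the target. Other genes, such as neighbors, were named after their values were seen. Alternatives were eBayes with trend and robust, median centring, quantile normalization, a block by animal, the upper 75% of probe sets, no saturated probe sets, the lowest-mean probe set of a gene, and leaving out arrays. Promoters and neighbors came from RefSeq for GRCm38.p6.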

Additional observations from a re-analysis of the deposited data

Results flagged for a closer look

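In groups of 4 arrays, Dixon's ratio of the gap beside the most extreme array to the range was above the critical value for 4 samples in 12 of 100 groups tested, and in none of the groups of *Mybph*, *Actc1*, *Myh3*, *Myl4* or *Tnnt2*. The MYTHO array of animal D stood below the other MYTHO arrays for *Myh7* (ratio 0.873, 11.58 against 14.68 to 15.13), *Tnnt1* (0.830, 12.06 against 14.26 to 14.71), *Tnni1* (0.903, 9.25 against 12.99 to 13.39), *Tnnc1* (0.950, 10.52 against 13.56 to 13.72), *Atp2a2* (0.917, 13.66 against 15.98 to 16.19) and *Hspb7* (0.936, 15.19 against 17.84 to 18.02). It also stood below them for the mean of the troponin list (0.838, 13.62 against 14.71 to 14.92), and above them for *Ryr1* (0.868, 16.73 against 16.35 to 16.40). The MYTHO array of animal A stood above the others for *Sln* (0.981, 12.08 against 7.31 to 7.40) and *Actb* (0.925, 17.05 against 16.52 to 16.56). The scrmb array of animal A stood above the others for *Myh7* (0.838, 13.75 against 11.53 to 11.89), and the MYTHO array of animal C above the others for D230025D16Rik (0.833, 8.80 against 8.08 to 8.20). Chance gives about 1 in 20 for independent groups, which is no reference here: the groups share arrays, lists overlap and many genes were named by their values.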

How the results depend on the processing

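Under 16 alternative settings, 688 values were recomputed: 51 moved, by over 1 SD for a difference or over 1.5 times for a count, and 637 did not. The 637 include list counts that were 0 under every setting. The lowest-mean probe set gave the reported values, since 0 of the genes had several rows. The differences of the 5 measurable genes moved by less than the SD pooled over both groups under every setting. Leaving out 1 array, they ran from 2.63 to 3.37 for *Mybph*, 1.26 to 1.79 for *Actc1*, 0.37 to 1.05 for *Myh3*, -0.01 to 0.27 for *Myl4* (below 0 only without MYTHO A) and 0.04 to 0.40 for *Tnnt2*. Non-overlapping selected genes numbered 2 to 4 without 1 array, and D230025D16Rik ran from -2.98 to -2.74 with limma adjusted p from 5.04e-06 to 0.0256 over all settings.

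The list calls depended on single arrays. Without 1 array they ran from 0 to 1 for myosin heavy chains, 0 to 2 for light chains, 0 to 3 for troponins, 0 to 1 for tropomyosins, 0 to 8 for slow genes, 0 to 1 for regenerating fiber genes and 2 to 7 for growth and load genes. Over all 112 measurable genes the 10 higher calls became 3, 4, 2 and 16 without MYTHO A, B, C or D, and 12, 4, 5 and 4 without scrmb A, B, C or D. With eBayes trend and robust, the calls were 0 for myosin heavy chains, light chains, troponins, tropomyosins and slow genes, and 1 for growth and load genes, and over all genes 1 was called higher and 1 had an adjusted p under 0.05. With the replicate block by animal, light chain calls were 2, and those over all genes were 11. Without both arrays of animal D, which was tried after seeing the data, 4 selected genes did not overlap, and calls were 2 for light chains, 1 for regenerating fiber genes, 6 for growth and load genes and 15 over all genes. The cause of these shifts was not tested.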
